A study of Mus musculus with 6 samples.

Results

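Interferon beta and the chains of the 2 interferon receptors were followed in mouse peritoneal macrophages that met LPS with or without the MEK inhibitor trametinib. The members are 5 genes, chosen by name for their role and found by mapping the table's Ensembl identifiers to GENCODE symbols: Ifnb1, Ifnar1, Ifnar2, Ifngr1 and Ifngr2. All 5 were present among 25044 genes, and all 5 had enough reads to be tested. With trametinib, Ifnb1 transcripts were 2.02-fold as abundant as with vehicle. The receptors changed chain by chain: Ifngr1 and Ifnar1 fell, Ifngr2 rose by a smaller amount, and Ifnar2 did not pass the test. The Ifngr1 and Ifnar1 calls held in all 12 alternative settings. The Ifnb1 call was lost when any library other than vehicle replicate 3 was left out. That of Ifngr2 was lost without trametinib replicate 1 or vehicle replicate 1.

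The trametinib group consisted of 3 libraries from macrophages given 100 nM trametinib for 2 h and then 100 ng/ml LPS for 12 h. The vehicle group consisted of 3 libraries from macrophages given DMSO in place of the drug and then the same LPS. Both groups came from wild-type C57BL/6 mice aged 8 weeks whose peritoneal cells were collected 3 days after thioglycollate, an irritant that recruits monocyte-derived macrophages. Cells that had adhered after 1 h were kept and cultured for 24 h before treatment. No culture without LPS was included, so the values show what trametinib changed in LPS-treated cells and not what LPS induced. The study text names 3 mice and does not tie the replicates to them, so a p-value here sets a difference against the spread of these libraries, which may be technical.

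Interferon beta is a type I interferon that macrophages secrete after TLR4, the LPS receptor, signals through the adaptor TRIF to the transcription factor IRF3. It acts on neighbouring cells and on the producing cell through a receptor of 2 chains, IFNAR1 and IFNAR2, bound by the kinases TYK2 and JAK1. Interferon gamma, the type II interferon of NK and T cells, binds IFNGR1, which carries JAK1 and needs the accessory chain IFNGR2 with its JAK2 to signal. Both receptors signal through JAK kinases to transcription factors, and the type I receptor uses STAT2 together with IRF9 to switch on antiviral genes.

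The promoters of 3 members are shown in part because they hold elements of factors of which some act in LPS signalling or downstream of ERK. The sequences are from RefSeq on GRCm38.p6, the assembly behind mm10, and each is written 5′ to 3′ on the strand of its gene, minus for Ifnb1 and plus for the others. In Ifnb1 the capitals mark 3 IRF elements (AANNGAAA) followed by an NF-kappaB element (GGGA, any 2 bases, then TTCC), upstream of the TATA box that ends the stretch at chr4:88522869-88522958. In Ifngr2, at chr16:91546969-91547008, the capitals mark an NF-kappaB element read from the opposite strand. In Ifnar1, at chr16:91485052-91485091, the capitals mark an ETS element (CCGGAAGT), a site type of ETS factors, only some of which ERK phosphorylates.
Ifnb1: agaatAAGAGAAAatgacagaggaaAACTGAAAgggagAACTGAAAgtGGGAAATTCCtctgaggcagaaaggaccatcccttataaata
Ifngr2: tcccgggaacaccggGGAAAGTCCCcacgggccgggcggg
Ifnar1: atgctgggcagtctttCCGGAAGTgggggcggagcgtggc

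All 5 members had 1 promoter window of 300 bases, 250 before the RefSeq start and 50 from it on. These windows were searched on both strands for 7 elements. The NF-kappaB element was found in Ifnb1 and Ifngr2 and in 1.47% of 32851 promoter windows of the genome. The ETS element was found in Ifnar1 and in 3.89% of windows. A GAS element (TTCNNNGAA), the site type named for its activation by interferon gamma, was found in Ifnar1 and Ifnar2 and in 8.30% of windows. Single IRF elements were found 3 times in Ifnb1, in no other member and in 23.9% of windows; this motif was added after the Ifnb1 sequence had been read, because the spaced pair (GAAA, any 2 bases, then GAAA), present in 3.44% of windows, matched no member. The AP-1 element TGANTCA and the CRE TGACGTCA had no exact match in any member, against 7.81% and 1.79% of windows. Looser forms of either element were not searched. The Ifngr1 window held none of the 7 elements. No match overlapped a match of another element in these 5 windows. These are matches of letters and not sites shown to be bound.

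Output genes of the ERK pathway, which lies below MEK, include early transcription factors and the feedback inhibitors of the DUSP, SPRY and SPRED families. Of 12 such genes, 11 were tested and all 11 fell with trametinib. Over the alternatives 7 to 11 passed as lower, with 7 under limma-voom. The genes that did not pass there, Ccnd1, Dusp6, Etv5 and Spred2, still had log2 fold changes of -3.13, -7.10, -5.19 and -6.53. Spred1, for instance, averaged 46.4 ± 1.26 counts per 1000000 of the TMM-scaled library (CPM) with trametinib and 293 ± 93.9 CPM with vehicle (log2 fold change -2.66, edgeR adjusted p 0.000768), and Egr1 and Spry1 had log2 fold changes of -6.23 and -4.27. Across all 11286 genes tested with edgeR's quasi-likelihood test, 34.3% passed an adjusted p of 0.05, made up of 15.8% higher and 18.4% lower with trametinib. Library totals lay between 17453778 and 19648467 counts. All 7 macrophage markers were detected in both groups, and Lyz2, a macrophage lysozyme, averaged 9724 CPM with trametinib and 10179 CPM with vehicle. Of the 7, 1 rose, 2 fell and 4 did not pass. Mertk, a receptor for apoptotic cells, averaged 226 ± 37.6 CPM with trametinib and 102 ± 3.71 CPM with vehicle (edgeR adjusted p 0.000412). Itgam, the CD11b gene, averaged 30.8 ± 6.47 CPM with trametinib and 69.1 ± 25.1 CPM with vehicle (adjusted p 0.0437), a call lost in 7 alternatives (adjusted p up to 0.134). The Adgre1 gene of the F4/80 antigen, on both the macrophage and the resident macrophage list, fell to 915 ± 61.8 CPM with trametinib, against 1720 ± 212 CPM with vehicle, while Gata6, which defines resident large peritoneal macrophages, had 1 read in all. Summed dendritic cell markers (6 of 6 in the table) reached 13.4 to 24.8 CPM with trametinib and 2.52 to 8.48 CPM with vehicle, mainly from Ccr7 in the trametinib libraries and in vehicle replicate 3. Of the other cell type lists, neutrophil, B cell, mast cell and eosinophil, and fibroblast and mesothelium markers stayed below 10.5 CPM in sum in every library. T and NK cell markers reached 16.3 to 25.5 CPM with trametinib and 10.6 to 17.5 CPM with vehicle, nearly all from Cd4, with Eomes at 0. The part of these cell types in the changes below was not tested. In bulk RNA, fewer cells of a type and less RNA per cell cannot be told apart.

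Of the 5 members, 2 rose and 2 fell, beside 15.8% and 18.4% of all genes tested. Their CPM did not overlap between the groups for any of the 5, a property shared by 49.3% of all genes tested. Vehicle replicate 3 was the vehicle library closest to the trametinib libraries for all 5 members, as it was for 57.3% of the 5563 genes whose groups did not overlap. The same library held 2.11 CPM of the ERK phosphatase gene Dusp6, against 14.5 and 17.1 CPM in vehicle replicates 1 and 2. The part of that library in the spread of the members was not tested beyond the values given without it.

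**Figure D1:**
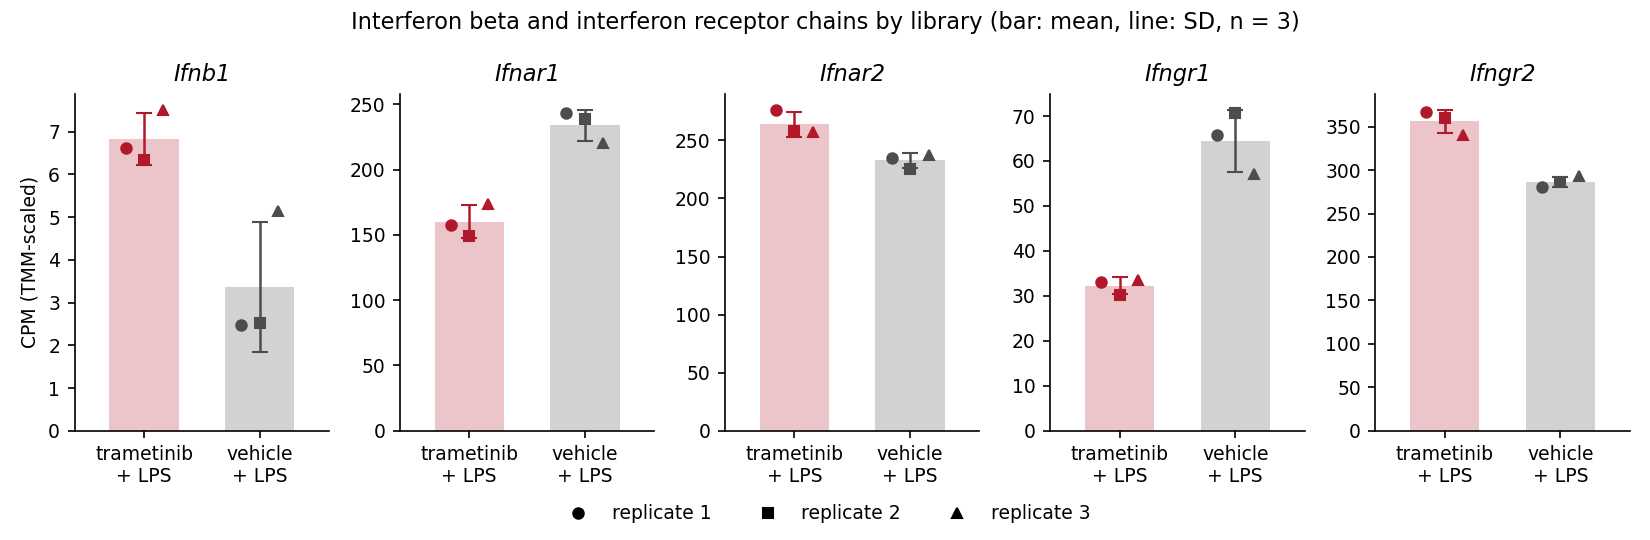
Normalised counts (CPM, TMM-scaled) of the 5 genes in each library, trametinib plus LPS on the left and vehicle plus LPS on the right of each panel, with bars at the mean, lines for the SD (n = 3) and 1 symbol per replicate number. The groups do not overlap in any panel, and vehicle replicate 3 (grey triangle) lies closest to the trametinib libraries in each.

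The ligand gene Ifnb1 (ENSMUSG00000048806) lies on the minus strand of mm10 chromosome 4, from 88522025 to 88522774, within the type I interferon gene cluster. It had 6.62, 6.34 and 7.52 CPM in trametinib replicates 1, 2 and 3, against 2.47, 2.51 and 5.13 CPM in vehicle replicates 1, 2 and 3. All trametinib libraries were above all vehicle libraries, and vehicle replicate 3 lay between them and the other vehicle libraries. Ifnb1 averaged 6.83 ± 0.614 CPM with trametinib and 3.37 ± 1.53 CPM with vehicle (SD, n = 3 each), a log2 fold change of 1.01 (SE 0.27, edgeR adjusted p 0.0229).

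These Ifnb1 levels rest on 112, 118 and 135 reads in the trametinib libraries and on 44, 45 and 95 reads in the vehicle libraries. The exact 95% Poisson interval of vehicle replicate 3, 4.15 to 6.28 CPM, lay above those of vehicle replicates 1 and 2, which ended at 3.31 and 3.36 CPM; such intervals cover counting error only. The interval of vehicle replicate 3 overlapped those of trametinib replicates 1 and 2, which began at 5.45 and 5.25 CPM, and not that of trametinib replicate 3, which began at 6.30 CPM. Without vehicle replicate 3 the log2 fold change of Ifnb1 was 1.45 (edgeR adjusted p 9.08e-05). Dropping any other library ended the call: the adjusted p became 0.0681, 0.0604 or 0.0683 when trametinib replicate 1, 2 or 3 was dropped, and 0.0708 or 0.0722 when vehicle replicate 1 or 2 was. Over the 12 alternatives it ran from 9.08e-05 to 0.0722.

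Ifnb1 was the interferon gene that these libraries contained in measurable amounts. Of 20 other interferon genes of type I, II and III, 18 had no read in any library. The interferon alpha genes among them are near-identical copies, so reads that match several of them could have gone uncounted. Ifnk, a type I interferon of skin, had 1 read in each group, Ifng, the interferon gamma gene, had none with trametinib and 1 with vehicle, and none of the 20 was tested. In single libraries the 20 genes together had 0, 0 and 1 reads with trametinib and 2, 0 and 0 reads with vehicle. A count of 0 allows up to 3 reads, which is 0.161 to 0.177 CPM per gene at these depths. For the plasmacytoid dendritic cell, another producer of type I interferon, the marker Siglech had 1 read with trametinib and 2 reads with vehicle. Tcf4, on the same marker list, was not low, at 77.6 ± 3.20 CPM with trametinib and 88.9 ± 6.18 CPM with vehicle (edgeR adjusted p 0.0610). Of the 7 markers of this cell, 0 rose, 2 fell, 2 did not pass and the others were not tested. Of all genes tested, 15.8% were higher and 18.4% lower. Cox6a2 averaged 1.91 ± 0.321 CPM with trametinib and 4.61 ± 0.156 CPM with vehicle (edgeR adjusted p 0.00110). Ccr9 averaged 1.02 ± 0.288 CPM with trametinib and 2.14 ± 0.338 CPM with vehicle (adjusted p 0.0159). The Ccr9 call was lost without trametinib replicate 1 or 2 or vehicle replicate 1 or 2, with adjusted p up to 0.0676 without trametinib replicate 1. Together the 7 markers summed to 1012 to 1200 CPM with trametinib and 897 to 1097 CPM with vehicle, mostly from Bst2, an interferon-induced gene that macrophages also express.

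Both chains of the type I receptor lie on chromosome 16. Ifnar1 (ENSMUSG00000022967, mm10 chromosome 16, 91485238 to 91507441, plus strand) encodes the chain that binds type I interferon with low affinity and carries TYK2. It had 158, 149 and 174 CPM in trametinib replicates 1, 2 and 3, against 243, 239 and 221 CPM in vehicle replicates 1, 2 and 3. All trametinib libraries were below all vehicle libraries, with trametinib replicate 3 the highest of its group. Ifnar1 averaged 160 ± 12.7 CPM with trametinib and 234 ± 11.9 CPM with vehicle, for a log2 fold change of -0.55 (SE 0.09, edgeR adjusted p 0.00186). It passed in all 12 alternatives.

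The other chain, Ifnar2 (ENSMUSG00000022971, mm10 chromosome 16, 91372783 to 91405589, plus strand), encodes the high-affinity chain that carries JAK1. It had 277, 258 and 257 CPM in trametinib replicates 1, 2 and 3, against 235, 225 and 238 CPM in vehicle replicates 1, 2 and 3. The trametinib libraries were all higher, by a margin smaller than for the other members. Ifnar2 averaged 264 ± 10.9 CPM with trametinib and 233 ± 6.46 CPM with vehicle, a log2 fold change of 0.18 (SE 0.07) that did not pass (edgeR adjusted p 0.0854). With the replicate number as a block the adjusted p was 0.0357, the lowest of the alternatives, which reached 0.255. Ifnar2 also makes a soluble form by alternative splicing, which counts per gene do not separate from the membrane form. A read-through gene, Gm21970, shares up to 158 bases of a single exon with Ifnar2 in GENCODE, and no values for Gm21970 were used here.

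The type II receptor showed the widest gap between its chains. Ifngr1 (ENSMUSG00000020009, mm10 chromosome 10, 19591949 to 19610229, plus strand) encodes the chain that binds interferon gamma. It had 33.0, 30.1 and 33.6 CPM in trametinib replicates 1, 2 and 3, against 65.7, 70.8 and 57.0 CPM in vehicle replicates 1, 2 and 3. Every vehicle library stood well above every trametinib library, and vehicle replicate 3 was the lowest of its group. Ifngr1 averaged 32.2 ± 1.89 CPM with trametinib and 64.5 ± 6.95 CPM with vehicle, a fall of 1.00 in log2 units (SE 0.09, edgeR adjusted p 0.000280). It passed in all 12 alternatives, with log2 fold changes of -1.08 to -0.93.

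Its partner Ifngr2 (ENSMUSG00000022965, mm10 chromosome 16, 91547072 to 91565623, plus strand) encodes the accessory chain that brings JAK2. It had 367, 360 and 341 CPM in trametinib replicates 1, 2 and 3, against 281, 286 and 293 CPM in vehicle replicates 1, 2 and 3. The groups were apart, with trametinib replicate 3 the lowest and vehicle replicate 3 the highest of its group. Ifngr2 averaged 356 ± 13.6 CPM with trametinib and 287 ± 5.96 CPM with vehicle, a 1.24-fold rise (log2 fold change 0.31, SE 0.07, edgeR adjusted p 0.0100). The call was lost when trametinib replicate 1 (adjusted p 0.0519) or vehicle replicate 1 (0.0517) was dropped, and the alternatives ran from 0.000246 to 0.0519.

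The balance of the 2 chains was also compared within each library, where no scaling between libraries enters. The log2 ratio of Ifnar1 to Ifnar2 counts was -0.81, -0.79 and -0.56 in the trametinib libraries, against 0.05, 0.08 and -0.11 in the vehicle libraries. Ifnar1 reads were thus 0.570 to 0.677 times the Ifnar2 reads with trametinib and 0.928 to 1.06 times with vehicle. The log2 ratio of Ifngr1 to Ifngr2 counts was -3.48, -3.58 and -3.34 in the trametinib libraries, against -2.10, -2.01 and -2.36 in the vehicle libraries.

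The mean log2 ratio of the type I chains was -0.72 ± 0.14 with trametinib and 0.01 ± 0.10 with vehicle (SD, n = 3 each), a difference of -0.73. For the type II chains it was -3.47 ± 0.12 with trametinib and -2.16 ± 0.18 with vehicle, a difference of -1.31. The libraries of the groups did not overlap in either ratio. Each comparison gave p = 0.10 in a two-sided exact permutation test, and 0.10 after adjustment over the 2 ratios, which is the smallest p that 3 against 3 allows. A ratio shows unequal change of the chains and not which of them moved.

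**Figure D2:**
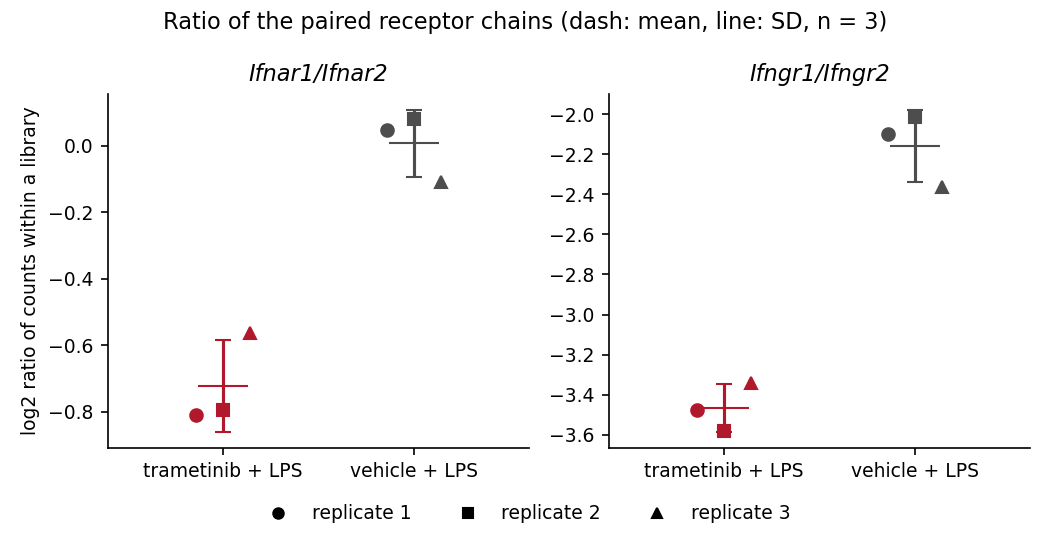
Log2 ratio of counts of the 2 chains of each interferon receptor within each library, trametinib plus LPS on the left, with a dash at the mean and a line for the SD (n = 3). The trametinib libraries lie 0.73 lower on average for Ifnar1/Ifnar2 and 1.31 lower for Ifngr1/Ifngr2, with no overlap.

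Levels were compared between the members as RPKM, which is CPM divided by the kilobases of annotated exon. With trametinib, Ifngr2 stood at 94.5 ± 3.62 RPKM, Ifnar2 at 79.3 ± 3.28, Ifnar1 at 27.0 ± 2.14, Ifngr1 at 11.3 ± 0.663 and Ifnb1 at 9.10 ± 0.819 RPKM (SD, n = 3). With vehicle, Ifngr2 stood at 76.1 ± 1.58, Ifnar2 at 69.9 ± 1.94, Ifnar1 at 39.4 ± 2.00, Ifngr1 at 22.6 ± 2.44 and Ifnb1 at 4.49 ± 2.04 RPKM. The order was the same in both groups, and no neighbours in it overlapped within a group. By RPKM the chains that fell, Ifnar1 and Ifngr1, were the less abundant transcript of their receptor in both groups. For the type I chains with vehicle this order rests on the exon lengths, 5940 bases for Ifnar1 and 3329 for Ifnar2. Their vehicle reads were nearly equal, 12690 for Ifnar1 and 12629 for Ifnar2. With trametinib Ifngr1 was 1.24 times the level of Ifnb1, and with vehicle 5.04 times. Lengths are the union of all annotated exons, so an unused exon would lower a gene's value.

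The chains of the type I receptor and Ifngr2 are neighbours in a span of 193 kb that also holds Il10rb, a chain of the IL-10 receptor. Changes along this stretch went in both directions. From Ifnar2 to Ifngr2 and 5 protein-coding genes to each side, 15 genes were annotated. Among these 2 rose, 3 fell, 6 did not pass and 4 were not tested, beside 15.8% higher and 18.4% lower of all genes tested. The counts include the members Ifngr2, which rose, Ifnar1, which fell, and Ifnar2, which did not pass. Gm21970, counted as not tested, had no entry in the deposited counts. Il10rb, between Ifnar2 and Ifnar1, had a log2 fold change of -0.09 (SE 0.09, edgeR adjusted p 0.477). Beyond Ifngr2, Gart, an enzyme of purine synthesis, fell by 0.66 (log2, SE 0.10, adjusted p 0.00134). Tmem50b, which adjoins Ifngr2, fell by 0.35 (adjusted p 0.0375), with groups that overlapped, and Synj1, a lipid phosphatase gene at the far side, rose by 0.23 (adjusted p 0.0499). Tmem50b passed in all but 4 of its alternatives and Synj1 in all but 5, with adjusted p up to 0.126 and 0.164.

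**Figure D3:**
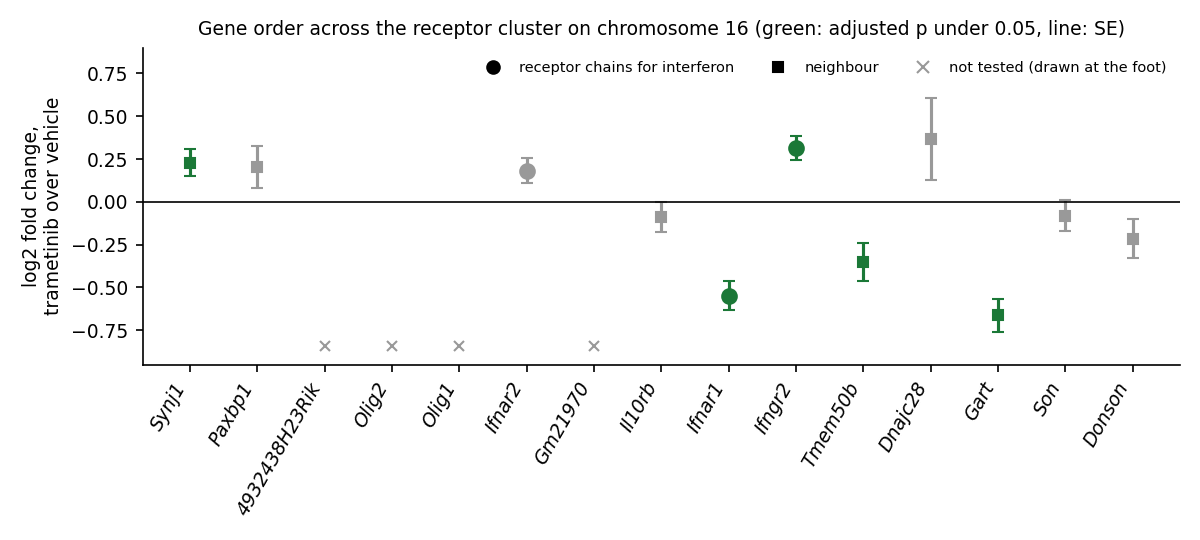
Log2 fold changes (trametinib over vehicle, with SE) of the 15 protein-coding genes in and around the receptor cluster on chromosome 16, in genome order and not to scale, with the interferon receptor chains as circles. Ifnar1 at -0.55 and Ifngr2 at 0.31 are adjacent among protein-coding genes, and 4 genes without a test are drawn as crosses at the foot.

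The genes closest in profile to each member were picked by the root mean square distance between log2 CPM profiles, centred on their own means over the 6 libraries, among 8558 candidates with at least 5 CPM. For Ifnb1 they were Lrba, a vesicle trafficking gene, Ly75, which encodes the endocytic receptor DEC-205, and Ciita, the activator of MHC class II genes (distances 0.05, 0.08 and 0.08). Ciita averaged 179 ± 15.7 CPM with trametinib and 104 ± 47.3 CPM with vehicle, and did not pass (edgeR adjusted p 0.109). Vehicle replicates 1, 2 and 3 had 79.4, 73.2 and 158 CPM of it. For Ifngr1 they were Sh2b3, an adaptor that restrains cytokine receptors, the cortactin-like gene Hcls1 and the phosphatase gene Ublcp1, with distances of 0.04, 0.05 and 0.06. Sh2b3 averaged 35.6 ± 2.36 CPM with trametinib and 69.4 ± 5.12 CPM with vehicle. For Ifnar1 they were D10Wsu102e, the peptidoglycan sensor gene Nod2 and the translation initiation factor gene Eif4g1 (distances 0.02, 0.03 and 0.03). For Ifnar2 they were Slfn5, Mfap1a and Ensa, and for Ifngr2 Mgat1, Resf1 and Sil1, all within 0.03. These distances are descriptions over 6 libraries that share the groups.

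Relatives of the receptor chains in the class II cytokine receptor family were mostly too low to test. Of 8 relatives, 3 were tested, 2 rose and 0 fell, beside 15.8% higher and 18.4% lower of all genes. Il20rb, a chain of the receptors for IL-19, IL-20 and IL-24, had 5.44, 5.43 and 5.35 CPM in the trametinib libraries, against 1.57, 1.95 and 2.32 CPM in the vehicle libraries. Its trametinib libraries were all higher and nearly equal to each other (log2 fold change 1.47, SE 0.18, edgeR adjusted p 0.000605). Il10ra, the ligand-binding chain for IL-10, averaged 226 ± 3.73 CPM with trametinib and 184 ± 19.0 CPM with vehicle (adjusted p 0.0312). The Il10ra call was lost without any single library other than vehicle replicate 3, with adjusted p of 0.0566 to 0.123 and 0.00206 to 0.123 over the alternatives, so that 1 relative rose in each of those 5 settings. The share of all genes higher there was 9.33%, 10.5% and 14.6% without trametinib replicates 1, 2 and 3, and 9.89% and 10.2% without vehicle replicates 1 and 2. Ifnlr1, the specific chain of the type III interferon receptor, had 2 reads with trametinib and 3 with vehicle.

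Genes that carry the signal from the receptors were higher or did not pass. Among 6 genes, namely Jak1, Jak2, Tyk2, Stat2, Stat3 and Irf9, 3 rose, 0 fell and 3 missed the threshold, at a median log2 fold change of 0.19 beside -0.01 for all genes tested and 15.8% of all genes higher. Tyk2, the kinase of the Ifnar1 chain, averaged 459 ± 18.8 CPM with trametinib and 294 ± 42.6 CPM with vehicle (log2 fold change 0.64, SE 0.11, edgeR adjusted p 0.00240). Stat3, activated by many cytokines, averaged 471 ± 45.0 CPM with trametinib and 314 ± 11.9 CPM with vehicle (adjusted p 0.00166). Stat2, which the type I receptor activates, averaged 1150 ± 62.9 CPM with trametinib and 962 ± 40.2 CPM with vehicle (adjusted p 0.0281). The Stat2 call was lost when trametinib replicate 1 or 2 (adjusted p 0.123 or 0.0911) or vehicle replicate 1 or 2 (0.0807 or 0.0727) was dropped, and the alternatives ran from 0.00632 to 0.123. In each of those 4 settings 2 genes of the list rose, where 9.33%, 10.5%, 9.89% and 10.2% of all genes did. Jak1 and Jak2, the other kinases of the receptors, changed by 0.11 and 0.12 in log2 units without passing (edgeR adjusted p 0.283 and 0.287).

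Attenuators of receptor signalling changed in both directions. Among 11 of them 3 rose, 3 fell and 5 missed the threshold, at a median log2 fold change of 0.04, beside 15.8% higher and 18.4% lower of all genes. Ptpn6, the gene of the phosphatase SHP-1, averaged 308 ± 30.0 CPM with trametinib and 541 ± 64.4 CPM with vehicle, a log2 fold change of -0.81 (SE 0.11, edgeR adjusted p 0.00104). Ptpn11, the gene of the related SHP-2, fell by 0.35 (adjusted p 0.00270), and Pias1, an inhibitor of STAT signalling, rose by 0.39 (adjusted p 0.00378). Socs3, a feedback inhibitor best known at the IL-6 receptor, had 218, 145 and 131 CPM in the trametinib libraries, against 587, 538 and 326 CPM in the vehicle libraries (log2 fold change -1.55, adjusted p 0.00962). Socs1, which binds JAK kinases at both interferon receptors, stood at a log2 fold change of 0.04 (adjusted p 0.901). Usp18, which displaces JAK1 from the Ifnar2 chain, stood at 0.21 on that scale (adjusted p 0.143). Of the list 1 rose without trametinib replicate 1 or 2, beside 9.33% and 10.5% of all genes, and 1 without vehicle replicate 1 or 2, beside 9.89% and 10.2%.

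Upstream of Ifnb1, the route from the LPS receptor to the promoter also changed in both directions. Among 23 genes 5 rose, 4 fell and 14 missed the threshold, at a median log2 fold change of 0.12, beside 15.8% higher and 18.4% lower of all genes. Tlr4 itself had 30.2, 31.5 and 37.4 CPM in the trametinib libraries, against 55.5, 61.7 and 53.3 CPM in the vehicle libraries, a log2 fold change of -0.78 (SE 0.10, edgeR adjusted p 0.000755). Tbkbp1, an adaptor of the kinase TBK1, fell by 1.32 (SE 0.14, adjusted p 0.000396). Ticam1, the gene of TRIF, averaged 68.3 ± 4.98 CPM with trametinib and 47.4 ± 2.32 CPM with vehicle (log2 fold change 0.53, adjusted p 0.00134). Irf8, a myeloid transcription factor, had a log2 fold change of 0.59 (SE 0.07, adjusted p 0.000755).

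Jun, which binds the Ifnb1 promoter together with ATF2, fell. It had 13.4, 11.4 and 11.8 CPM in the trametinib libraries, against 43.8, 40.5 and 25.5 CPM in the vehicle libraries (log2 fold change -1.59, SE 0.20, edgeR adjusted p 0.00143). Irf3 and Atf2 stood at -0.07 and 0.09 in log2 units (edgeR adjusted p 0.525 and 0.340), and the NF-kappaB subunit genes Rela and Nfkb1 at 0.21 and -0.02 (0.0581 and 0.897). Irf7, which amplifies type I interferon production, averaged 2403 ± 183 CPM with trametinib and 2088 ± 244 CPM with vehicle (adjusted p 0.156). With the replicate block 8 of the 23 genes rose, beside 20.5% of all genes, and without trametinib replicate 1 there were 3, beside 9.33%.

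Downstream genes that interferons induce were higher where they passed. Among 26 genes typical of type I interferon 12 rose, 0 fell and 14 missed the threshold, at a median log2 fold change of 0.27, beside 15.8% higher of all genes. Among them Ddx60, a helicase of antiviral defence, averaged 537 ± 40.9 CPM with trametinib and 396 ± 15.8 CPM with vehicle (log2 fold change 0.44, SE 0.08, edgeR adjusted p 0.00397), and Herc6, a ligase for the ubiquitin-like ISG15, 622 ± 53.8 CPM with trametinib and 459 ± 36.1 CPM with vehicle (adjusted p 0.00725). Ifit1, a sensor of viral RNA ends, averaged 2082 ± 226 CPM with trametinib and 1561 ± 45.4 CPM with vehicle (adjusted p 0.00787). With the replicate block 21 of the 26 rose, beside 20.5% of all genes. When a trametinib library was dropped the count was 4, 4 and 16 without replicates 1, 2 and 3, beside 9.33%, 10.5% and 14.6% of all genes. When a vehicle library was dropped it was 5, 7 and 8 without replicates 1, 2 and 3, beside 9.89%, 10.2% and 19.3%.

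Of 19 genes known for their response to interferon gamma, many of which also respond to interferon beta, 11 rose, 0 fell and 8 missed the threshold, at a median log2 fold change of 0.39, beside 15.8% higher of all genes. Irf1, Irf7, Socs1, Usp18 and Isg15 each belong to 2 of these lists. Irf1, a transcription factor induced early by interferon gamma, averaged 840 ± 86.1 CPM with trametinib and 591 ± 41.1 CPM with vehicle (edgeR adjusted p 0.00427). Nos2, the inducible nitric oxide synthase of activated macrophages, averaged 2312 ± 544 CPM with trametinib and 802 ± 77.1 CPM with vehicle (log2 fold change 1.53, adjusted p 0.000965). The chemokine gene Cxcl9 averaged 48.2 ± 8.69 CPM with trametinib and 30.9 ± 1.89 CPM with vehicle (adjusted p 0.00616). Of this list 16 rose with the replicate block and 14 without vehicle replicate 3, beside 20.5% and 19.3% of all genes. In contrast, 3 rose without trametinib replicate 1, 3 without trametinib replicate 2, 4 without vehicle replicate 1 and 6 without vehicle replicate 2, beside 9.33%, 10.5%, 9.89% and 10.2%. In the same libraries Ifngr1 was lower with trametinib, and Ifng had 1 read in all.

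**Figure D4:**
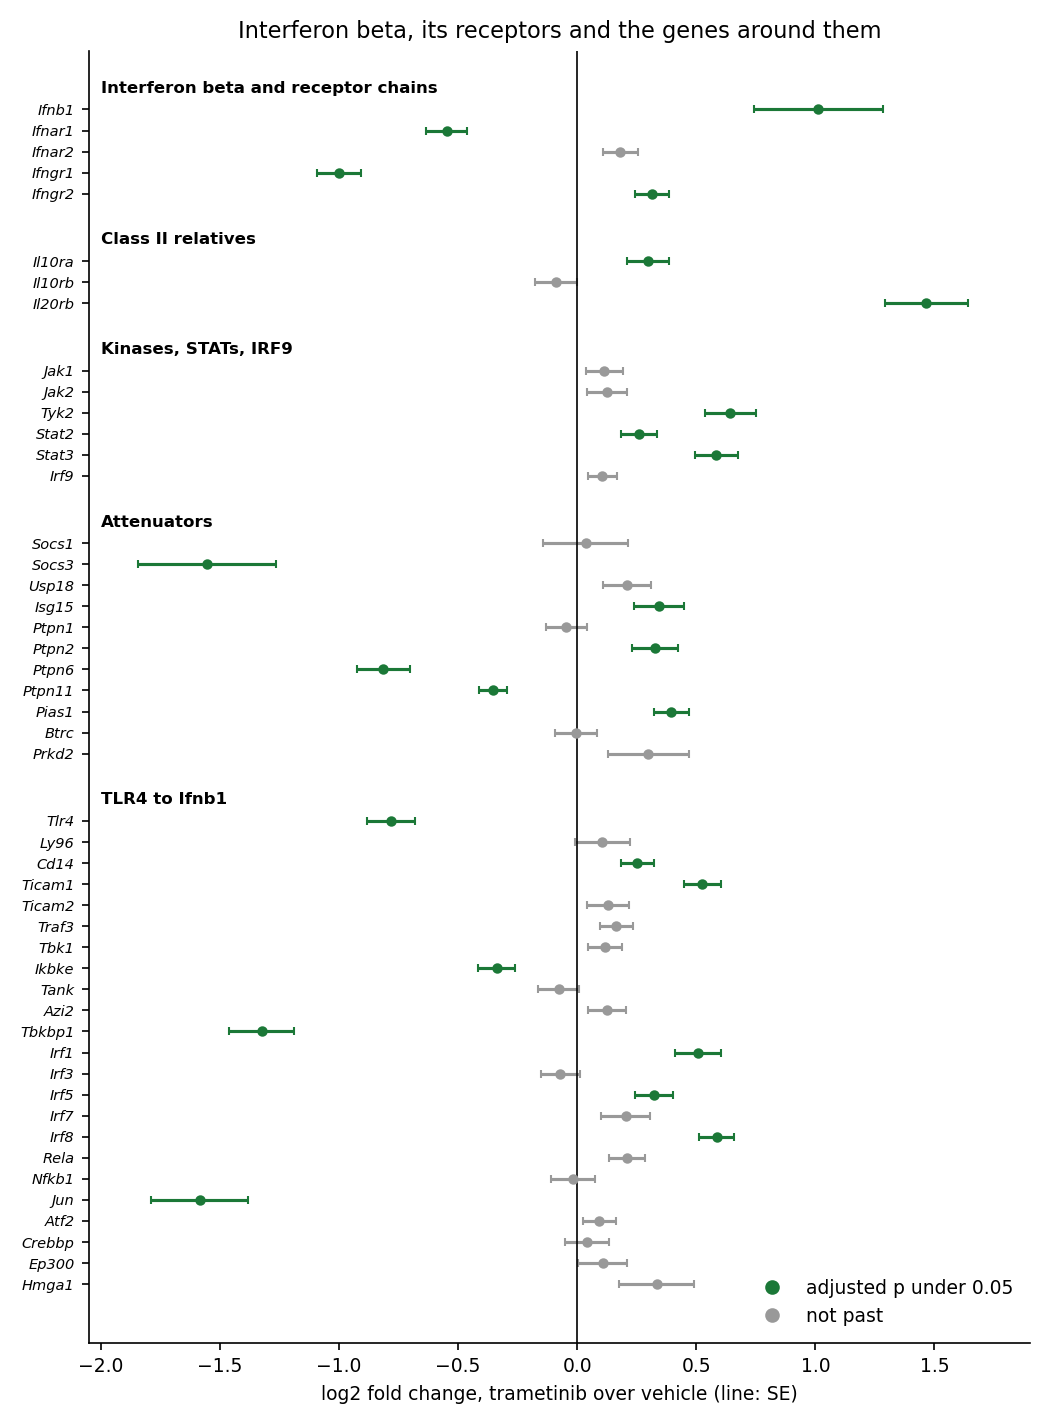
Log2 fold changes (trametinib over vehicle, with SE) of the 5 members and of the tested genes of 4 lists around them, in green where the edgeR adjusted p was under 0.05 and grey where it was not. Ifngr1 and Ifnar1 lie left of 0, while no gene of the signalling list fell.

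The direction of each member's fold change was the same in all 13 settings, as the plot by setting shows. Calls for Ifnar1 and Ifngr1 held in every setting, and the Ifnb1 and Ifngr2 calls did not. Over all genes tested the replicate block left 20.5% higher and 22.4% lower with trametinib. Dropping trametinib replicate 1, 2 or 3 left 9.33%, 10.5% or 14.6% higher and 11.9%, 12.7% or 17.1% lower. Dropping vehicle replicate 1, 2 or 3 left 9.89%, 10.2% or 19.3% higher and 12.3%, 12.8% or 21.4% lower.

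**Figure D5:**
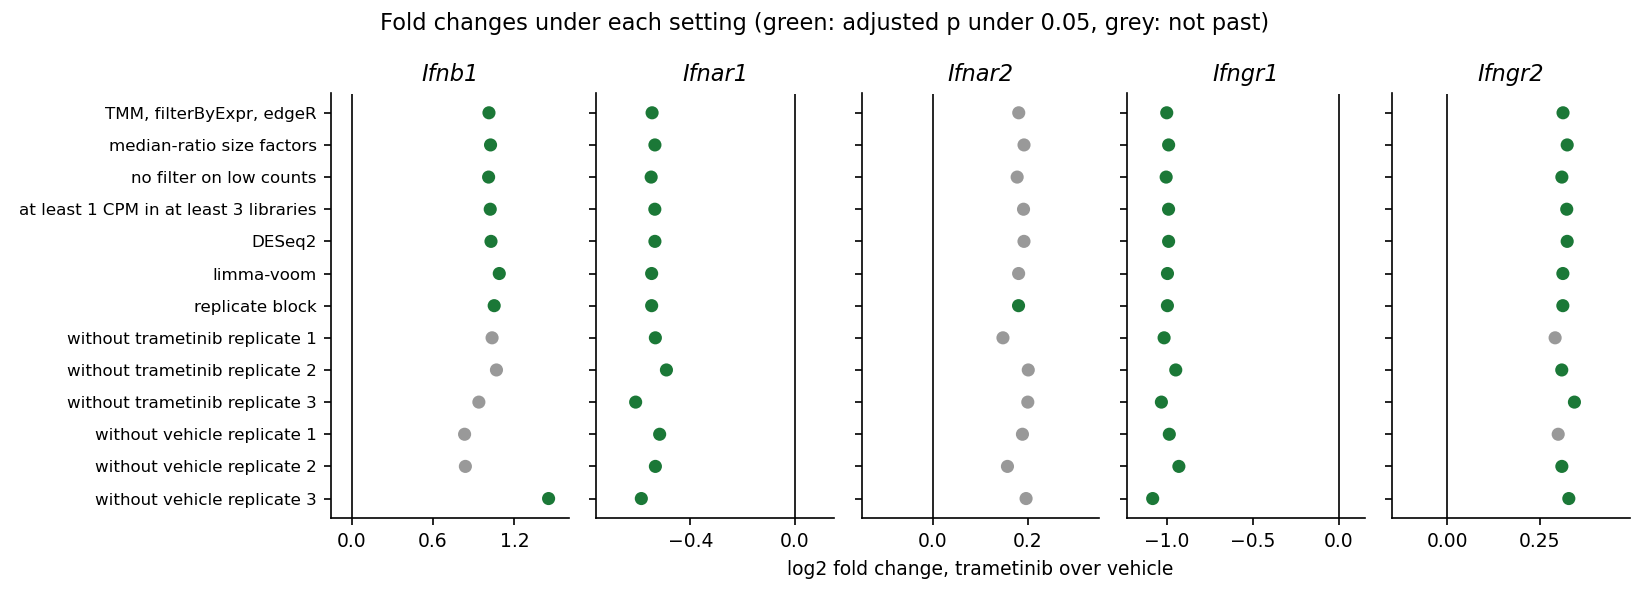
Log2 fold change (trametinib over vehicle) of each member under the edgeR setting and 12 alternatives, in green where the adjusted p was under 0.05 and grey where it was not. Ifnar1 and Ifngr1 are green throughout, Ifnb1 is grey in 5 of the 6 settings that leave out a library, and Ifnar2 is green under the replicate block alone.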

How the data were processed

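RNA was sequenced from ribosomal-RNA-depleted libraries, per the labels' protocols. The authors deposited 1 table of raw counts per gene. The submitters' processing notes name HISAT2 2.1.0 and mm10, featureCounts 1.6.4, and R 3.6.0 with DESeq2 1.24.0. Not given in the sources used here: the annotation, the strand setting and the handling of multi-mapped reads, so read-through and antisense overlaps are uncertain. Of 25354 entries, 310 repeats with identical values were dropped. GENCODE M21 gave symbols, positions and exon lengths for 25033 of 25044 identifiers.

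Genes kept by filterByExpr were tested with edgeR 4.0.16 (TMM factors, robust quasi-likelihood fit, group as the only term) in R 4.3.3. P-values were Benjamini-Hochberg adjusted over all genes tested, and each SE was derived as |log2 fold change| over the root of F. Receptor chain ratios were tested with SciPy 1.17.1. The procedure was tested on simulated data. Alternatives used median-ratio factors, other filters, DESeq2 1.42.0, limma 3.58.1 (voom), the replicate block, and each library left out. Libraries of the same number deviated together from their group means (r = 0.35, 0.42 and 0.31 across genes, and -0.26 to -0.08 for different numbers). Deviations cancel within a group, so the negative values follow from the positive ones. The numbers may pair the samples. The labels do not state a pairing, and it was not tested.

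A gene of the signalling list is not reported here. Members and lists were chosen with earlier results of these data known. Named genes are the members, up to 3 passing genes of each list with the smallest p, and the 3 nearest profiles to each member. Ifnlr1, Il10rb, Jak1, Jak2, Socs1, Socs3, Usp18, Ticam1, Dusp6, Jun, Atf2, Irf3, Irf7, Rela, Nfkb1, marker genes, other interferons and the neighbours on chromosome 16 were chosen after their values were seen.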

Additional observations from a re-analysis of the deposited data

How the results depend on the processing

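Directions of the 5 members held under all 12 alternatives, and the median of all genes moved by at most 0.04 on the log2 scale. Leaving out each library in turn gave log2 fold changes of 0.83 to 1.45 for Ifnb1, -0.61 to -0.49 for Ifnar1, 0.15 to 0.20 for Ifnar2, -1.08 to -0.93 for Ifngr1 and 0.29 to 0.34 for Ifngr2. Members higher then numbered 0 to 2, with 0 without trametinib replicate 1 or vehicle replicate 1, and members lower 2 throughout. Genes higher among all tested numbered 1068 to 2210 and genes lower 1360 to 2453. The chain ratio differences were -0.81 to -0.69 for Ifnar1/Ifnar2 and -1.41 to -1.24 for Ifngr1/Ifngr2. For 3 against 2, the two-sided permutation test used here allows no p below 0.20, before or after adjustment. With the replicate block, the log2 fold change of Ifnar2 was 0.18 and passed (adjusted p 0.0357), 3 members were higher, and the sign-flip test of the paired ratios gave 0.25, the smallest p it allows. The block changed no other member's call. Ifnb1 had 44 to 135 reads per library. Its vehicle libraries ran from 2.47 to 5.13 CPM, with vehicle replicate 3 above the others by more than counting error.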
